A study of Mus musculus with 6 samples.

Results

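A set of 10 genes for inflammatory mediators was followed in 3 mouse embryonic fibroblast lines. They were Nos2, Lcn2, Saa3, Il6, Il33, Il1rn, Il1rl1, Csf1, Csf3 and Lif, which are 10 of the 27179 genes in the count tables. The list was drawn up by gene symbol with the counts of these same libraries known. The levels of the 10 genes are therefore given below as a description, with no p-value for any of them. Only the number past the threshold is given, beside the share of all genes, and nothing is read from it. The counts of all 6 libraries were used. Of the 10 genes, 8 passed the low-count filter and were fitted with the 14069 genes tested, and Il1rn and Csf3 did not pass it.

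All 3 lines carry the knockout of Cry1, Cry2, Per1, Per2, Nr1d1 and Nr1d2 and received no treatment. The CPN-/- line has no further change. The CPN-/- CRY1 and CPN-/- CRY2 lines express exogenous CRY1 or CRY2 in these cells from a viral promoter. Each was infected with virus and selected as a single colony with blasticidin, and none of the 3 lines carries an empty vector. The expressed cryptochrome thus cannot be told apart from infection, drug selection or other properties of 1 clone. Each line had 2 libraries from independent RNA preparations, with 25957409 to 36106949 counts per library. The design asks how mRNA levels differ between the parental line and each line with 1 cryptochrome, and between these last 2 lines. In whole cultures, fewer cells with a transcript and less RNA per cell cannot be told apart.

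The targeted genes and the libraries were examined first. Cry1 had 3973 and 2988 counts in CPN-/-, 5971 and 5846 in CPN-/- CRY1, compared with 1388 and 1303 in CPN-/- CRY2. Cry2 had 4325 and 3362 counts in CPN-/-, 1832 and 1594 in CPN-/- CRY1, compared with 9498 and 9468 in CPN-/- CRY2. Each gene was thus highest in the line named for it, although a gene's count adds up its endogenous and viral transcripts. Per1, Per2, Nr1d1 and Nr1d2, the other genes disrupted in the cells per the labels, had between 476 and 3756 counts in every library, and counts per gene do not check those deletions. The 8 fibroblast markers summed to between 11090 and 17750 CPM (counts per library total, with TMM scaling), although Thy1 had fewer than 10 counts in every library. Of the 8 leukocyte and macrophage markers, 5 had fewer than 10 counts in every library, namely Ptprc, Adgre1, Itgam, Fcgr1 and Cd3e. Cd14 had 218 to 379 counts per library, Lyz2 31 to 153 and Cd68 44 to 65. The summed level of the list was 14.7 and 18.4 CPM in CPN-/-, 16.6 and 16.2 CPM in CPN-/- CRY1, compared with 12.97 and 11.1 CPM in CPN-/- CRY2. The 6 epithelial and 5 endothelial markers summed to at most 1.78 and 2.56 CPM. The 1.78 CPM was in replicate 2 of CPN-/- CRY2, where Krt14 had 22 counts, Krt5 13 and Krt18 9. In replicate 1 of that line they had 0, 1 and 0. The CPN-/- libraries differed more from each other than those of the other lines did, with an SD of the log2 difference over genes of 0.43 against 0.22 in CPN-/- CRY1 and 0.23 in CPN-/- CRY2. This difference followed exon length in CPN-/- (Spearman's rho 0.59 over 12478 genes, a description, since all genes come from the same pair of libraries).

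As background, these genes belong to the first response of a tissue to infection or injury. Fibroblasts respond to interleukin-1, tumour necrosis factor or bacterial products through NF-kB and C/EBP factors, which raise the transcription of cytokines, of acute phase proteins and of the inducible nitric oxide synthase, while RNA-binding proteins limit the lifetime of many cytokine mRNAs. Cryptochromes repress transcription driven by CLOCK-BMAL1 at E-boxes, and they have also been linked to the restraint of inflammatory signalling through cAMP and protein kinase A.

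The sequences next to listed start sites were searched for elements of this kind. The RefSeq promoter table for GRCm38.p6 (mm10) holds 12 promoters, from 250 bases before to 50 bases after a transcription start, for 8 of the 10 genes, and Nos2 and Csf3 were not matched. The promoters of 5 genes are shown as the 250 bases before the start, 5′ to 3′ on the strand of the gene. Lcn2 and Saa3 represent the genes near 0 in both CRY-expressing lines, Lif the gene lower in both at moderate counts, Il6 the gene lower in CPN-/- CRY2 and not in CPN-/- CRY1, and Csf1 an abundant gene. Capitals mark matches to C/EBP (TTGCNNAA), AP-1 (TGANTCA) or the NF-kB consensus, searched on both strands. The windows are chr2:32387740-32387989 (reverse) for Lcn2, chr7:46715677-46715926 (reverse) for Saa3, chr11:4257318-4257567 (forward) for Lif, chr5:30012864-30013113 (forward) for Il6 and chr3:107760470-107760719 (reverse) for Csf1.
Lcn2: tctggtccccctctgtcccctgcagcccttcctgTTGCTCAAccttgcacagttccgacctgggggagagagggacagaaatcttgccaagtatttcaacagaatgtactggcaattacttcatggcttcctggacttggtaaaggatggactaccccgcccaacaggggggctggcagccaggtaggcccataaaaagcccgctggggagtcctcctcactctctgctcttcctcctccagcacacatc
Saa3: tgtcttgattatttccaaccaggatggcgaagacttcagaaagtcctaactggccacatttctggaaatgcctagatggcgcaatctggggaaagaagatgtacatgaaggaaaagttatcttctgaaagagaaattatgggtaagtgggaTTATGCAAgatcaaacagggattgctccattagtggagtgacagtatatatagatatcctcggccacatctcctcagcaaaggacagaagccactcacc
Lif: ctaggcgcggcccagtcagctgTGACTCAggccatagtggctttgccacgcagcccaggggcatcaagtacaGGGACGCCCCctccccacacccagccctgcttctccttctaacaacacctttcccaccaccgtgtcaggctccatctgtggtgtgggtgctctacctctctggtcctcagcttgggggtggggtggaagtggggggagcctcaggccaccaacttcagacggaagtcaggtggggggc
Il6: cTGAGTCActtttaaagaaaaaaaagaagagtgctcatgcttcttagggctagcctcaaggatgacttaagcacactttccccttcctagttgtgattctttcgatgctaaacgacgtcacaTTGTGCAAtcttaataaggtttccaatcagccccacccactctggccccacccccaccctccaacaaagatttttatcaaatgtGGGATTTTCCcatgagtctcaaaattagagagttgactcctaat
Csf1: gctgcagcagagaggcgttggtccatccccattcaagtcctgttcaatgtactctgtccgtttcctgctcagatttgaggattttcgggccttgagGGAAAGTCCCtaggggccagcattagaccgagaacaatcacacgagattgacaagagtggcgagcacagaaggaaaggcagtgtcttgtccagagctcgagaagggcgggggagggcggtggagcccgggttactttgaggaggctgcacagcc

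A C/EBP match stood in 5 of the 12 promoters, of Lcn2 (first base 216 bases before the start), Saa3 (99), Il6 (128), Il33 (85) and Il1rl1 (34), while 10.8% of the 32544 promoters in the table held it. The NF-kB consensus stood in 3, of Il6 (44 bases before the start), Csf1 (154) and Lif (178), against 8.5% of all promoters. AP-1 stood in 3, of Il6 (249), Lif (228) and Il1rn (141), against 7.8% of all promoters. The matches of Il33 and Il1rl1 are at 1 of 2 listed starts, and that of Il1rn at 1 of 3. The starts listed for Saa3 and Il1rl1 lie inside the gene positions given below, away from their 5′ ends. The E-box CACGTG was in 0 of the 12, against 7.2% of all promoters, which says only that these letters are not in these windows. No 2 matches in a promoter overlapped. The matches describe sequence and do not show binding in these cells.

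**Figure D1:**
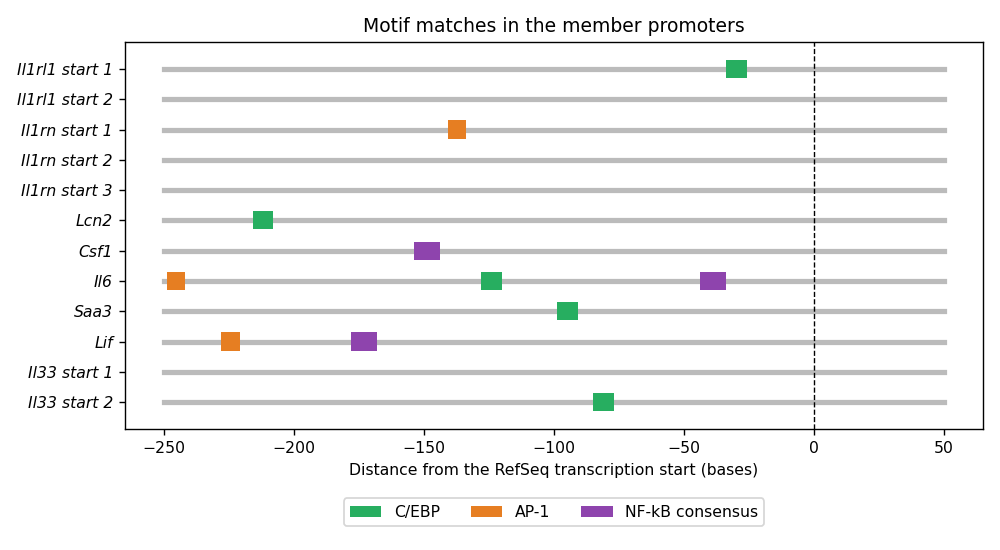
Positions of C/EBP, AP-1 and NF-kB consensus matches in the 12 RefSeq promoters of 8 genes. The x axis is the distance from the transcription start in bases, each grey line is 1 promoter, and each coloured block is 1 match drawn to scale. The Il6 promoter is the only one of the 12 with a match to each of the 3 motifs.

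The effectors Nos2, Lcn2 and Saa3 were expressed in CPN-/- and were close to 0 counts in both CRY-expressing lines. Nos2 encodes the inducible nitric oxide synthase, which makes nitric oxide from arginine. Nos2 (NCBI Gene identifier 18126, chromosome 11, 78920787 to 78960226, forward) had 563 and 336 counts in CPN-/-, 1 and 2 in CPN-/- CRY1, compared with 3 and 3 in CPN-/- CRY2. The groups did not overlap, and the highest library of the CRY-expressing lines held 3 counts. The summed counts, scaled for library size, were 347-fold higher in CPN-/- than in CPN-/- CRY1 (exact 95% counting interval 118 to 1685) and 140-fold higher than in CPN-/- CRY2 (64.2 to 383). Intervals of this kind cover counting error only. The ratio of CPN-/- CRY2 to CPN-/- CRY1 was 2.47 with an interval of 0.53 to 15.3, so that a difference between these lines was not detectable at this depth. The level in CPN-/- was 15.3 ± 3.40 CPM (SD, n = 2), from 17.7 and 12.9 CPM.

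Lcn2 encodes lipocalin 2, a secreted protein that withholds iron from bacteria by binding their siderophores. Lcn2 (16819, chromosome 2, 32384637 to 32387739, reverse) had 191 and 186 counts in CPN-/-, 1 and 0 in CPN-/- CRY1, compared with 2 and 1 in CPN-/- CRY2. Both CPN-/- libraries lay far above the other 4. The ratio of CPN-/- to CPN-/- CRY1 was 436 (77.8 to 17280) and that to CPN-/- CRY2 was 118 (40.0 to 573). The level in CPN-/- was 6.57 ± 0.80 CPM (SD, n = 2).

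Saa3 encodes serum amyloid A3, the member of this acute phase family that is made outside the liver. Saa3 (20210, chromosome 7, 46711998 to 46719615, reverse) had 156 and 236 counts in CPN-/-, 1 and 0 in CPN-/- CRY1, compared with 0 and 0 in CPN-/- CRY2. The groups did not overlap, and the CPN-/- libraries were themselves apart, at 4.90 and 9.05 CPM. The ratio of CPN-/- to CPN-/- CRY1 was 454 (81.0 to 17960), which rests on 1 count, and 151 with CPN-/- CRY1 set to a floor of 3 counts over the line. In CPN-/- CRY2 Saa3 was at least 122-fold lower than in CPN-/-, computed against the same floor, while the lower end of the exact 95% interval was 99.1. The related genes Saa1, Saa2 and Saa4 had at most 2 counts in any library.

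**Figure D2:**
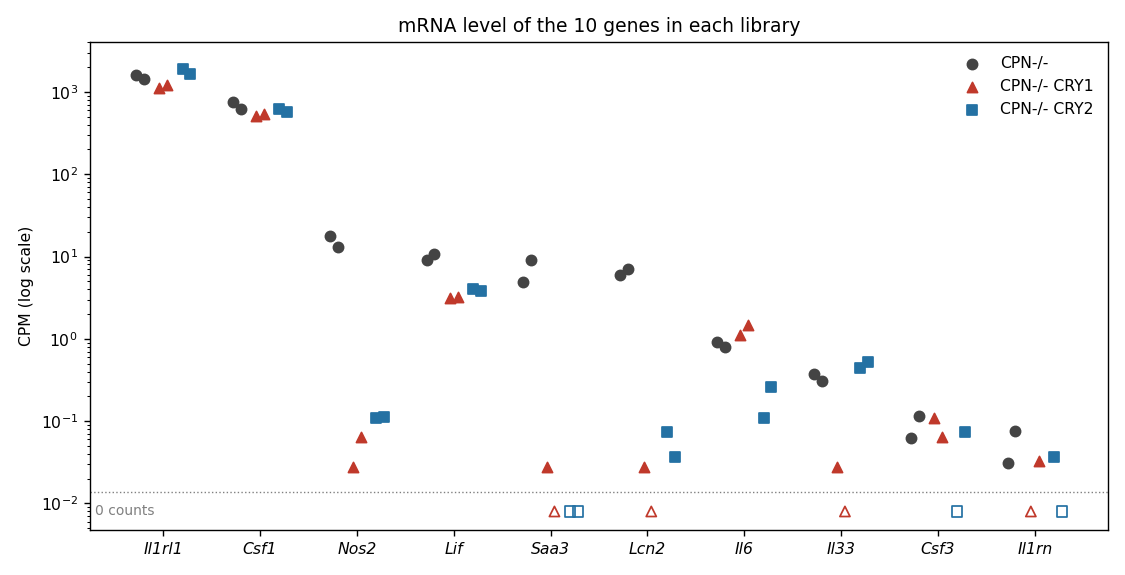
mRNA level of the 10 genes in each of the 6 libraries, as CPM on a log axis, with circles for CPN-/-, triangles for CPN-/- CRY1, squares for CPN-/- CRY2, and open symbols under the dotted line for 0 counts. Nos2, Saa3 and Lcn2 drop from between 4.90 and 17.7 CPM to at most 0.11 CPM, while Il1rl1 and Csf1 stay at 509.5 CPM or more in every library.

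Lif and Il6, ligands of the gp130 receptor family, were not lower in the same lines. Lif encodes leukaemia inhibitory factor. Lif (16878, chromosome 11, 4257568 to 4272514, forward) had 285 and 277 counts in CPN-/-, 112 and 100 in CPN-/- CRY1, compared with 110 and 103 in CPN-/- CRY2. Both libraries of each CRY-expressing line were below both CPN-/- libraries, at 3.17 ± 0.10 and 3.93 ± 0.16 CPM against 9.79 ± 1.18 CPM (SD, n = 2). The log2 fold change was −1.62 for CPN-/- CRY1 and −1.31 for CPN-/- CRY2 (standard error 0.15 each), and −0.31 (standard error 0.16) between CPN-/- CRY1 and CPN-/- CRY2. Lif was thus lower in the same lines as Nos2, with counts that remained well above the floor.

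Il6 encodes interleukin-6, which drives the acute phase response. Il6 (16193, chromosome 5, 30013114 to 30019975, forward) had 29 and 21 counts in CPN-/-, 40 and 45 in CPN-/- CRY1, compared with 3 and 7 in CPN-/- CRY2. Both CPN-/- CRY1 libraries lay above and both CPN-/- CRY2 libraries below the CPN-/- libraries. The levels were 0.86 ± 0.075, 1.28 ± 0.25 and 0.18 ± 0.11 CPM (SD, n = 2) in this order. The log2 fold change of Il6 was 0.56 (standard error 0.29) for CPN-/- CRY1 and −2.20 (standard error 0.44) for CPN-/- CRY2, where it was −2.91 without replicate 2 of CPN-/- CRY2. Between CPN-/- CRY1 and CPN-/- CRY2 it was 2.76 (standard error 0.40), a 6.88-fold ratio of summed counts (3.56 to 14.9).

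Il33 and Il1rl1 are a ligand and its receptor in the interleukin-1 family. Il33 encodes interleukin-33, a nuclear protein that is released from damaged cells as an alarm signal. Il33 (77125, chromosome 19, 29925113 to 29960718, forward) had 12 and 8 counts in CPN-/-, 1 and 0 in CPN-/- CRY1, compared with 12 and 14 in CPN-/- CRY2. The CPN-/- CRY1 libraries were below the other 4, and those of CPN-/- and CPN-/- CRY2 were close, at 0.34 ± 0.050 and 0.48 ± 0.055 CPM (SD, n = 2). The ratio to CPN-/- CRY1 was 23.2 for CPN-/- (3.70 to 959) and 32.1 for CPN-/- CRY2 (5.28 to 1317). With CPN-/- CRY1 set to a floor of 3 counts over the line, these ratios were 7.7 and 10.7. The fitted log2 fold change of CPN-/- CRY1 against CPN-/- was −4.19, −6.32 without replicate 1 and −3.45 without replicate 2 of CPN-/- CRY1. Of the genes tested on chromosome 19, 473 in number, the median log2 fold change in CPN-/- CRY1 was 0.31, opposite in sign to that of Il33.

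Il1rl1 encodes ST2, the receptor of interleukin-33, which exists as a membrane form and a secreted decoy that counts per gene do not separate. Il1rl1 (17082, chromosome 1, 40404864 to 40465418, forward) had 50943 and 37137 counts in CPN-/-, 40024 and 37130 in CPN-/- CRY1, compared with 51807 and 44557 in CPN-/- CRY2. In CPM the CPN-/- CRY1 libraries were lowest, at 1107 and 1204, those of CPN-/- followed at 1601 and 1425, and those of CPN-/- CRY2 were highest, at 1903 and 1651, so that the groups did not overlap. Against CPN-/-, CPN-/- CRY1 had a log2 fold change of −0.39 and CPN-/- CRY2 of 0.23 (standard error 0.12 each), and −0.62 (standard error 0.12) between them. Transcripts of Il1rl1, of either form, were thus abundant where Il33 had at most 14 counts.

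Il1rn encodes the interleukin-1 receptor antagonist, which blocks the receptor without signalling. Il1rn (16181, chromosome 2, 24336860 to 24351491, forward) had 1 and 2 counts in CPN-/-, 0 and 1 in CPN-/- CRY1, compared with 1 and 0 in CPN-/- CRY2. It was at or under the floor of 3 counts in every line, and no fold is given.

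The colony-stimulating factors were at opposite ends of the range. Csf1 encodes macrophage colony-stimulating factor, which fibroblasts make without stimulation. Csf1 (12977, chromosome 3, 107741048 to 107760469, reverse) had 23953 and 16006 counts in CPN-/-, 18420 and 16718 in CPN-/- CRY1, compared with 16854 and 15236 in CPN-/- CRY2. In CPM, 753 and 614 in CPN-/- stood against 510 and 542 in CPN-/- CRY1, both lower, and 619 and 564 in CPN-/- CRY2, which overlapped with CPN-/-. The log2 fold change of Csf1 was −0.38 for CPN-/- CRY1 and −0.21 for CPN-/- CRY2 (standard error 0.13 each). For the 638 genes tested on chromosome 3, CPN-/- CRY1 had a median of −0.28 and CPN-/- CRY2 of 0.11, so that the value of Csf1 in CPN-/- CRY1 lay near that of its chromosome. The part of the chromosome in the value of Csf1 was not tested. Leaving out 1 library at a time, the Csf1 values ranged from −0.51 to −0.22 for CPN-/- CRY1 and from −0.34 to −0.053 for CPN-/- CRY2.

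Csf3 encodes granulocyte colony-stimulating factor, which is induced by interleukin-17 and interleukin-1. Csf3 (12985, chromosome 11, 98700183 to 98703631, forward) had 2 and 3 counts in CPN-/-, 4 and 2 in CPN-/- CRY1, compared with 0 and 2 in CPN-/- CRY2. The libraries of the 3 lines overlapped, and the ratio of CPN-/- to CPN-/- CRY2, 2.34, had an interval of 0.38 to 24.6.

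**Figure D3:**
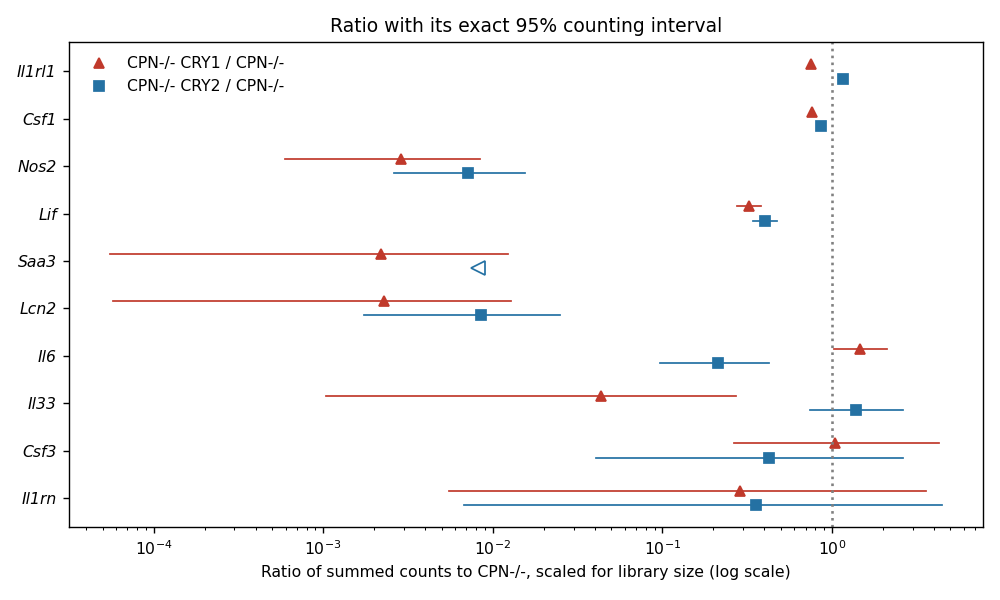
Ratio of the summed counts of each CRY-expressing line to CPN-/-, scaled for library size, on a log axis, with triangles for CPN-/- CRY1 and squares for CPN-/- CRY2. Lines are exact 95% counting intervals, which leave out the spread between libraries, the dotted line marks 1, and the open arrowhead is the bound for Saa3 with 0 counts in CPN-/- CRY2. The symbols of Nos2, Lcn2 and Saa3 lie more than 2 decades left of 1 in both lines. Those of Il6, Il1rl1, Il33 and Csf3 lie on different sides of 1 in the 2 lines. The intervals of Il33 in CPN-/- CRY2 (0.75 to 2.62) and of Csf3 in both lines span 1.

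Read together, the 10 genes took 4 patterns. Nos2, Lcn2, Saa3 and Lif were lower in both CRY-expressing lines. Il6 was lower in CPN-/- CRY2, its log2 value in CPN-/- CRY1 being 0.56 (standard error 0.29), and Il33 was lower in CPN-/- CRY1 and had close levels in the other lines. Il1rl1 and Csf1 moved by less than 0.4 on the log2 scale against CPN-/-, and Il1rn and Csf3 were near the floor. Of the 8 genes fitted, 5 were past an adjusted p of 0.05 in CPN-/- CRY1, all lower, where 24.3% of all genes tested were past it, and 5 in CPN-/- CRY2, all lower, where 6.66% were. Between CPN-/- CRY1 and CPN-/- CRY2 it was 3 (1 higher, 2 lower), where 16.3% of all genes were past it. Nothing is read from these counts, since the genes were chosen on the same values. The median log2 fold change of the 8 was −2.91, −1.76 and −0.46 in the 3 comparisons, and that of all genes tested was between −0.0076 and −0.0046.

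Per length of exon, the order of levels also differed between lines. In CPN-/- it was Il1rl1 with 219 CPM per kb, Csf1 with 129, Nos2 with 3.47, Saa3 with 2.68, Lcn2 with 2.50, Lif with 2.25, Il6 with 0.35, Il33 with 0.12, Csf3 with 0.063 and Il1rn with 0.0098. The libraries of neighbouring genes from Nos2 to Lif overlapped in this order, and the other neighbours did not. In CPN-/- CRY1, Lif with 0.73 and Il6 with 0.53 CPM per kb came next after Csf1, and Nos2, Saa3, Lcn2 and Il33, each at 0.010 or less, came after Csf3 with 0.062. In CPN-/- CRY2, Lif with 0.90 CPM per kb came next after Csf1, Il33 with 0.17 lay above Il6 with 0.076, and Csf3, Nos2 and Lcn2, at 0.026, 0.025 and 0.021, overlapped.

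The genes whose levels followed those of Nos2, Lcn2 and Il6 most closely over the 6 libraries were found by the root mean square distance of log2 CPM from the CPN-/- mean, among 13014 genes. For Nos2 they were Cxcl1 (distance 0.65), H19 (0.65) and Cxcl5 (0.66), and for Lcn2 they were H19 (0.40), Cxcl1 (0.60) and Casp4 (0.63). Cxcl1 and Cxcl5 encode chemokines that attract neutrophils, H19 is an imprinted non-coding RNA and Casp4 encodes an inflammatory caspase. Cxcl1 had 2084 and 1822 counts in CPN-/-, 28 and 39 in CPN-/- CRY1, compared with 19 and 17 in CPN-/- CRY2. For Il6 the nearest were Ddx60 (0.28), Tgfb1 (0.31) and Camk2n1 (0.31). Tgfb1, which encodes transforming growth factor beta 1, had 383 and 322 counts in CPN-/-, 536 and 496 in CPN-/- CRY1, compared with 99 and 118 in CPN-/- CRY2, the same order of lines as Il6. A small distance describes these 6 libraries and no more.

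Other genes of the same pathways, which hold none of the 10 genes, were tested gene by gene by the edgeR quasi-likelihood method, with p-values adjusted over all genes tested after Benjamini and Hochberg. The 5 lists held 75 genes, of which 49 were tested. Against CPN-/-, 17 fell and 3 rose in CPN-/- CRY1, which is 40.8% of the 49 against 24.3% of all genes. In CPN-/- CRY2 13 were called, 12 of them lower, 26.5% against 6.66%. Their median log2 fold changes were −0.31 and −0.18, against −0.0073 and −0.0076 over all genes. Between CPN-/- CRY1 and CPN-/- CRY2, 8 were lower and 5 higher, 26.5% against 16.3%. In both lines 10 genes were lower, namely Cebpd, Cp, Gch1, Irf1, Nfkbiz, Ptx3, Serpina3g, Slc7a2, Steap4 and Zc3h12a, and 0 were higher in both. These comparisons share the CPN-/- libraries. The share of all genes called lower or higher in both lines was not computed, so that nothing is read from the 10 and the 0. Serpina3g and Steap4 passed the low-count filter only through CPN-/-. The lists were drawn up with results of these libraries known and are not independent evidence of a direction. The p-values measure the spread between 2 RNA preparations per line.

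Among the 12 genes tested for nitric oxide synthesis, its substrate arginine and its cofactor tetrahydrobiopterin, 3 fell and 1 rose in CPN-/- CRY1, and 3 fell in CPN-/- CRY2. These are 33.3% of the list against 24.3% of all genes tested, and 25% against 6.66%. Slc7a2 encodes a transporter that brings arginine into the cell. It had 674 and 387 counts in CPN-/-, 29 and 20 in CPN-/- CRY1, compared with 191 and 175 in CPN-/- CRY2. On the log2 scale Slc7a2 fell by 4.62 (standard error 0.25) in CPN-/- CRY1, with an adjusted p of 2.01e-04 from edgeR, and by 1.42 (standard error 0.19) in CPN-/- CRY2, with an adjusted p of 0.00798, and the difference was −3.20 between CPN-/- CRY1 and CPN-/- CRY2 (standard error 0.26, adjusted p = 6.49e-04). Gch1 encodes the enzyme that starts tetrahydrobiopterin synthesis, with 58 and 39 counts in CPN-/-, 26 and 21 in CPN-/- CRY1, compared with 19 and 17 in CPN-/- CRY2. Its log2 fold changes were −1.25 (adjusted p = 0.011) and −1.32 (adjusted p = 0.0239), and all 4 libraries of the CRY-expressing lines were below CPN-/-. Gchfr, whose product regulates that enzyme, fell by 2.22 in CPN-/- CRY1 (adjusted p = 0.00137) and had −0.31 in CPN-/- CRY2 (adjusted p = 0.373), and the lines differed by −1.90 (adjusted p = 0.00291). Ass1, which recycles citrulline to arginine, rose by 1.30 in CPN-/- CRY1 (adjusted p = 0.00105), and was 0.83 higher there than in CPN-/- CRY2 (adjusted p = 0.00639). Ddah2, whose product is of the family that degrades inhibitors of nitric oxide synthases, fell by 0.96 in CPN-/- CRY2 (adjusted p = 0.0299) and had −0.061 in CPN-/- CRY1. The most abundant genes of the list, Slc7a1 and Qdpr, were not called. The other nitric oxide synthase genes, Nos1 and Nos3, named after their values were seen, had at most 3 counts in any library.

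Among other acute phase genes, 5 of 14 were expressed enough to be tested, 4 of them fell in both lines, and Hpx was not called in either. That is 80% of the 5 in each line, against 24.3% of all genes in CPN-/- CRY1 and 6.66% in CPN-/- CRY2. Steap4 and Serpina3g passed the low-count filter only through CPN-/-, so that the direction of their calls was set by the filter. Steap4, which encodes a metalloreductase, had 45 and 49 counts in CPN-/-, 1 and 0 in CPN-/- CRY1, compared with 0 and 1 in CPN-/- CRY2. Its ratio of CPN-/- to the other lines was 109 (19.1 to 4342) and 88.0 (15.4 to 3514), with adjusted p of 0.00122 and 0.00328 from edgeR. Serpina3g, a serine protease inhibitor gene, had 16 and 19 counts in CPN-/- and at most 1 in any other library (adjusted p = 0.00611 and 0.0131). Cp, which encodes the copper protein ceruloplasmin, had 172 and 87 counts in CPN-/-, 23 and 13 in CPN-/- CRY1, compared with 37 and 50 in CPN-/- CRY2, and fell by 3.03 (adjusted p = 0.00214) and 1.45 (adjusted p = 0.0386), with a difference of −1.58 between the CRY-expressing lines (adjusted p = 0.0386). Ptx3, which encodes the secreted pattern recognition protein pentraxin 3, was the abundant member, with 9854 and 9512 counts in CPN-/-, 4650 and 4016 in CPN-/- CRY1, compared with 5772 and 5947 in CPN-/- CRY2. Its log2 fold changes were −1.38 (adjusted p = 5.57e-04) and −0.64 (adjusted p = 0.0183), and the lines differed by −0.74 (adjusted p = 0.00649).

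All 16 regulators of cytokine transcription and mRNA decay were tested, of which 6 fell and 1 rose in CPN-/- CRY1 and 4 fell in CPN-/- CRY2. The shares called were 43.8% against 24.3% of all genes tested, and 25% against 6.66%. Zc3h12a encodes regnase-1, an endonuclease that cuts Il6 mRNA among others, and had 683 and 515 counts in CPN-/-, 264 and 217 in CPN-/- CRY1, compared with 138 and 144 in CPN-/- CRY2. It fell by 1.52 (standard error 0.12, adjusted p = 4.92e-04 from edgeR) and by 1.99 (standard error 0.12, adjusted p = 4.48e-04) on the log2 scale. Nfkbiz encodes IkB-zeta, a nuclear cofactor of NF-kB that Lcn2 and Il6 are known to need, and fell by 1.12 (adjusted p = 0.00464) and 1.64 (adjusted p = 0.00249). Cebpd, which encodes C/EBP delta, fell by 0.98 (adjusted p = 0.00704) and 1.68 (adjusted p = 0.00223). Irf1, an interferon-induced transcription factor gene, fell by 0.75 (adjusted p = 0.0103) and 0.76 (adjusted p = 0.0215). Cebpb, which encodes C/EBP beta, fell by 0.79 in CPN-/- CRY1 (adjusted p = 0.0118) and had −0.55 in CPN-/- CRY2 (adjusted p = 0.0869). Zfp36l1, which encodes an mRNA decay factor, fell by 0.53 in CPN-/- CRY1 (adjusted p = 0.0249), and Rela, a subunit gene of NF-kB, rose there by 0.33 (adjusted p = 0.0378). Between CPN-/- CRY1 and CPN-/- CRY2, Rela was 0.58 higher (adjusted p = 0.00706), Cebpd 0.70 higher (adjusted p = 0.0296), Zc3h12a 0.46 higher (adjusted p = 0.0487) and Zfp36l1 0.53 lower in CPN-/- CRY1 (adjusted p = 0.0322). Hnrnpd and Jun, the most abundant genes of the list, were not called.

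**Figure D4:**
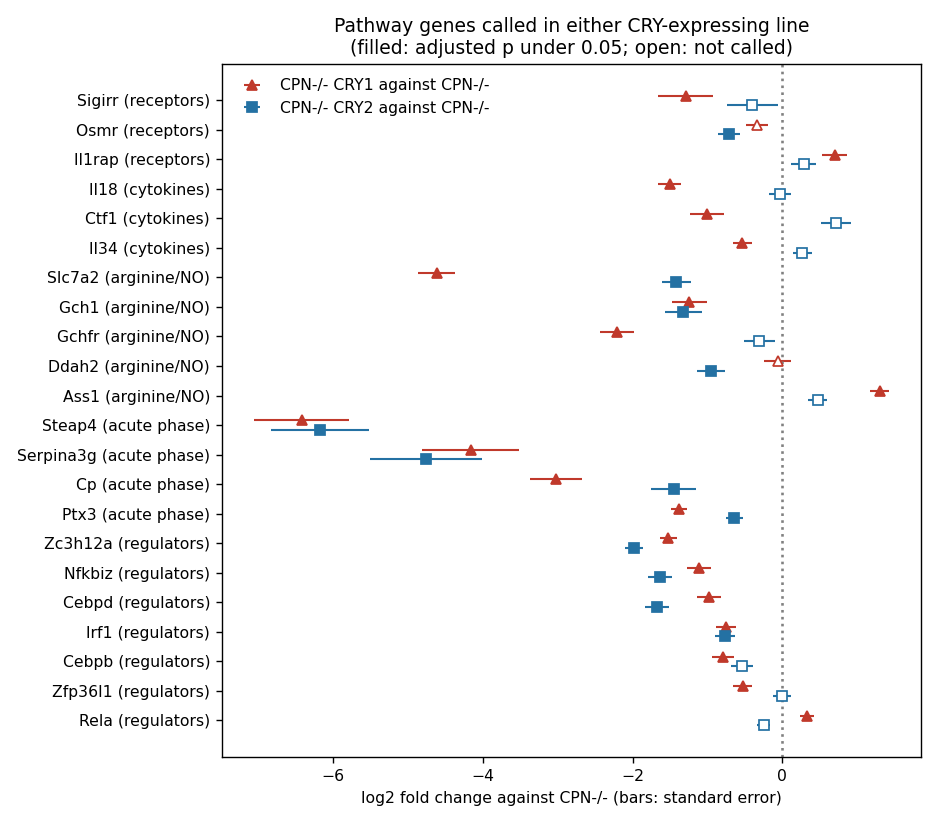
Log2 fold change against CPN-/- of pathway genes called in either CRY-expressing line, grouped by list, with triangles for CPN-/- CRY1 and squares for CPN-/- CRY2. Bars are standard errors, filled symbols have an adjusted p under 0.05 from edgeR, and the fitted values of Steap4 and Serpina3g rest on at most 1 count per library of the CRY-expressing lines. All acute phase genes shown and Zc3h12a, Nfkbiz, Cebpd and Irf1 are filled left of 0 in both lines.

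Of 8 receptor genes tested, 1 fell and 1 rose in CPN-/- CRY1, 1 fell in CPN-/- CRY2, and 0 were called between CPN-/- CRY1 and CPN-/- CRY2. The share in CPN-/- CRY1, 25%, was near the 24.3% of all genes tested, so that nothing is read from it about the list. In CPN-/- CRY2 it was 12.5% against 6.66%, and between the CRY-expressing lines 0% against 16.3%. Sigirr, which encodes a restraining receptor of the interleukin-1 family, had 29 and 22 counts in CPN-/- and 17 and 7 in CPN-/- CRY1, a log2 fold change of −1.29 (adjusted p = 0.0452 from edgeR). Il1rap, which encodes the co-receptor that ST2 and the interleukin-1 receptor share, rose by 0.70 in CPN-/- CRY1 (adjusted p = 0.0253). Osmr, the oncostatin M receptor gene, fell by 0.71 in CPN-/- CRY2 (adjusted p = 0.0338). Il6st, which encodes gp130 and serves Il6 and Lif signals, had 8120 to 17063 counts per library and was not called, with log2 fold changes of −0.55 and 0.15. Named after their values were seen, Csf3r, the receptor gene for Csf3, had 0 counts in all 6 libraries, and Csf1r, that for Csf1, had 4 to 10. Csf3r has a near-identical stretch in another gene, and Csf1r shares exon bases with a gene on the opposite strand. Reads of both may have been lost in counting, so that these low counts do not show absence. Slc22a17, which encodes a lipocalin 2 receptor, also named after its values were seen, had 5 and 13 counts in CPN-/- and 0 in the other 4 libraries.

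Of 8 further cytokine genes of the same families that were tested, 3 fell in CPN-/- CRY1, 37.5% against 24.3% of all genes. Il18, a cytokine gene of the interleukin-1 family, had 353 and 362 counts in CPN-/-, 165 and 130 in CPN-/- CRY1, compared with 322 and 338 in CPN-/- CRY2. It fell by 1.50 (standard error 0.15) in CPN-/- CRY1, with an adjusted p of 0.00137 from edgeR, had −0.034 in CPN-/- CRY2 (standard error 0.15, adjusted p = 0.894), and differed by −1.47 between these lines (adjusted p = 0.00169). Ctf1, which encodes the gp130 ligand cardiotrophin 1, fell by 1.01 in CPN-/- CRY1 (adjusted p = 0.0211) and differed by −1.73 between the CRY-expressing lines (adjusted p = 0.00328). Il34, which encodes the other ligand of the Csf1 receptor, fell by 0.53 (adjusted p = 0.0274) and differed by −0.80 (adjusted p = 0.00888). Kitl, the most abundant gene of the list, was not called in any of the 3 comparisons. Of the genes that start this response, named after their values were seen, Il1b had 0 or 1 counts per library. Il1a, which did not pass the low-count filter, had 10 and 16 counts in CPN-/-, 5 and 5 in CPN-/- CRY1, compared with 4 and 8 in CPN-/- CRY2.

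Many of these pathway calls did not hold in every setting. Of the 20 calls in CPN-/- CRY1, 8 were kept in all 12 other settings tried (Ass1, Cp, Gchfr, Il18, Ptx3, Slc7a2, Steap4 and Zc3h12a), as were 4 of 13 in CPN-/- CRY2 (Cebpd, Nfkbiz, Steap4 and Zc3h12a) and 4 of 13 between the lines (Ctf1, Gchfr, Il18 and Slc7a2). Of the other calls, 7, 3 and 8 were lost only when a library of a CRY-expressing line was left out. The remaining 5, 6 and 1 were also lost in another setting, such as the DESeq2 Wald test for Sigirr in CPN-/- CRY1 and Gch1 in CPN-/- CRY2. Over all settings the adjusted p of the calls lost reached 0.236, 0.287 and 0.295. The exons of Cebpb, Cebpd, Cp, Ctf1, Il1rap, Il34, Irf1, Slc7a2 and Zfp36l1 share bases with a gene on the opposite strand, and the strand setting of the counting is not given in the sources used here, so that reads of the pairs cannot be told apart. Ass1 and Serpina3g have nearly identical copies elsewhere, and their counts are uncertain for this reason. Saa1 and Saa2 are nearly identical to each other in a stretch, and Nos1, Nos3, Il1a and Il1b share exon bases with an opposite-strand gene. Their low counts are uncertain in the same ways. None of the 10 genes followed here shared exon bases or a stretch of 150 bases at 95% identity with another gene.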

How the data were processed

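The authors prepared stranded mRNA libraries from 3 fibroblast lines, used STAR for mapping to mm10, and obtained gene counts with featureCounts. The deposited values are whole counts per NCBI Gene identifier, without normalization, and were used as deposited. The gene annotation and the strand setting are not given in the sources used here. The RefSeq table gave symbols and positions and GENCODE gave exon lengths, both for GRCm38. Near-identical transcripts were searched with BLAST+ 2.17.0.

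Counts were fitted with edgeR 4.0.16 in R 4.3.3, with the line as the only term, TMM factors, all 6 libraries in 1 model, the default filterByExpr filter (minimum count 10, minimum total 15) and robust quasi-likelihood tests, two-sided, with Benjamini-Hochberg adjustment over 14069 genes and a threshold of 0.05. Standard errors were derived from the log2 fold change and the F statistic. Ratios of summed counts carry exact 95% Clopper-Pearson counting intervals. For Lcn2, Saa3 and Il33, a line with fewer than 3 counts was also set to a floor of 3 counts over the line. Alternatives were DESeq2 1.42.0 with its Wald test or its size factors, no filter, a replicate term, 4 libraries only, removal of the trend with exon length (loess, span 0.5), a prior count of 2 and each library left out. The steps were tested on simulated data.

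The genes and lists were chosen with earlier results of these data known. Each pathway list names up to 4 called genes per comparison, by size of change, and may name the first 2 uncalled genes by mean count. Nearest genes needed a mean of 20 counts in CPN-/-. Marker lists were used only to check the cells. The values of 1 pathway gene are not reported here, and the counts of calls include it.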

Additional observations from a re-analysis of the deposited data

Results flagged for a closer look

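For 3 of the 10 genes the libraries of CPN-/- CRY1 and CPN-/- CRY2 lay on opposite sides of both CPN-/- libraries. Over all genes tested, both CPN-/- CRY1 libraries were below CPN-/- for 34% and above for 33%, and both CPN-/- CRY2 libraries for 27.2% and 28%. These are shares for each line alone. The share of all genes with the 2 lines on opposite sides was not computed, so that nothing is read from the count of 3. The log2 fold change of CPN-/- CRY1 against CPN-/- CRY2 was 2.76 for Il6, −4.66 for Il33 and −0.62 for Il1rl1, and these values are a description from which no test is drawn, since the genes were chosen on measured values. Against CPN-/- itself, the log2 fold change was 0.56 (standard error 0.29) for Il6 in CPN-/- CRY1, 0.47 (standard error 0.40) for Il33 in CPN-/- CRY2, and −0.39 and 0.23 (standard error 0.12 each) for Il1rl1 in CPN-/- CRY1 and CPN-/- CRY2. For Il33 the value rests on 1 count in CPN-/- CRY1.

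For 13 pathway genes the direct comparison of CPN-/- CRY1 with CPN-/- CRY2 passed the threshold of edgeR's quasi-likelihood test. The log2 fold change was lower in CPN-/- CRY1 for Slc7a2 (−3.20), Gchfr (−1.90), Ctf1 (−1.73), Cp (−1.58), Il18 (−1.47), Il34 (−0.80), Ptx3 (−0.74) and Zfp36l1 (−0.53). It was higher for Ddah2 (0.90), Ass1 (0.83), Cebpd (0.70), Rela (0.58) and Zc3h12a (0.46). Each line is 1 clone, so that the difference between cryptochromes cannot be told apart from a difference between clones.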

How the results depend on the processing

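The fold changes of the 8 fitted genes of the set and of the called pathway genes kept their sign under the alternatives run, apart from the Saa3 value between the CRY-expressing lines, which rests on 1 count and was 0 with that library left out. Of all genes tested, 3423 were called in CPN-/- CRY1 against CPN-/-, 937 in CPN-/- CRY2 against CPN-/- and 2292 in CPN-/- CRY1 against CPN-/- CRY2. With only the 4 libraries of a comparison they were 1798, 473 and 6838, and with the length trend removed they were 4947, 1794 and 3679. The corresponding numbers of pathway genes were 20, 13 and 13, with 4 libraries 15, 7 and 31, and with the length trend removed 30, 20 and 22. With each library left out in turn, calls ranged from 663 to 8980, from 199 to 8046 and from 475 to 6897, and pathway calls from 9 to 38, from 4 to 35 and from 4 to 31. The cause was not tested. The balance of calls turned with the length trend removed, when 2220 genes were called lower and 2727 called higher in CPN-/- CRY1 (1844 and 1579 before), and 764 and 1030 in CPN-/- CRY2 (574 and 363 before).

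The correlations between the replicate differences of the lines were −0.087 (CPN-/- with CPN-/- CRY1), 0.155 (CPN-/- with CPN-/- CRY2) and −0.035 (the CRY-expressing lines). These values cannot settle whether the replicate numbers pair the samples. With the replicate block, 3458, 977 and 2188 genes and 21, 13 and 13 pathway genes were called, without Rela in CPN-/- CRY1 (adjusted p = 0.0617) and Zc3h12a between the CRY-expressing lines (adjusted p = 0.0798). Fitted fold changes of Nos2, Lcn2, Saa3 and Il33 in lines with 3 counts or fewer depended on the prior count, which is why ratios of counts are given for them.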
